A study of Mus musculus with 20 samples.

Results

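The genes described here are 10 genes of neutrophils: the calprotectin genes S100a8 and S100a9, the stefin gene Stfa1, the granule protein genes Mpo, Elane, Camp, Ngp and Ltf, and the receptor genes Csf3r and Cxcr2. Each was taken from the row of the deposited table whose platform annotation names that gene alone, and each had exactly 1 such row. They are 10 of 30142 genes measured on 20 arrays. Values are log2 expression levels, so a difference of 1 is a doubling. All mice were on the FVB/N background and are called CKO by the labels. They carry floxed alleles, that of Rb1 among them, which Cre recombinase can delete, and are p107-/- in every group, controls included. The groups were normal bladders (5 arrays, titled CT), bladders inoculated with an adenovirus coding for Cre (tumour bladders, 7 arrays) and metastases (4 arrays). A further group was Cre-inoculated bladders of mice given palbociclib, which blocks Cdk4 and Cdk6, together with CDDP, a platinum drug (treated bladders, 3 arrays). The dose was 150 mg/kg of palbociclib daily into the peritoneum for 28 days and 6 mg/kg of CDDP once a week. One more metastasis was titled PALBO-MET (palbo metastasis, 1 array), and its treatment is given by that title only. The labels name no inoculation for the normal bladders, no organ for the metastases and no age. RNA came from whole tissue by a kit for fixed, embedded samples, so fewer neutrophils and less RNA per neutrophil cannot be told apart.

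Neutrophils are short-lived white cells that leave the blood for inflamed tissue. S100a8 and S100a9 form calprotectin, a calcium- and metal-binding complex that fills the neutrophil cytosol and is released during inflammation. Monocytes and stressed squamous epithelium also make it. Granule proteins are made in the bone marrow in a fixed order: Mpo and Elane in promyelocytes, for the primary granules, then Ltf, Camp and Ngp in later precursors, for the secondary granules. Mature neutrophils in tissue therefore hold granule proteins whose messenger RNA has largely gone, while transcripts of S100a8, S100a9, Csf3r and Cxcr2 persist.

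The arrays fell into 2 sets that did not follow the groups. A set of 8 (normal bladders 4, 5 and 6, tumour bladders 3, 4 and 5, metastases 3 and 4) had an SD of 0.336 to 0.367 in dim rows. With each row's mean taken off, none of them reached more than r = 0.210 with another array (across rows, which are not independent replicates). On the other 12 arrays the SD was 0.228 to 0.329, and each had a partner at r = 0.256 or more. The smooth muscle markers averaged 6.68 to 6.87 on the 8 arrays and 4.79 to 9.97 on the 12, and the luminal urothelium markers no more than 6.71 and from 4.74 to 9.42. Of the bladders, tumour bladder 6 was lowest in both lists, at 5.45 and 5.27. On the 12 arrays Xist, which is transcribed from the inactive X, had levels of 11.74 and 11.71 on normal bladders 1 and 2, while no tumour bladder exceeded 5.86. Sex and tumour status cannot be told apart there. Treated bladder 3 was at 10.05, the other treated bladders at 7.10 and 6.04, and metastases 1 and 2 at 5.44 and 5.73. Xist thus also differs between groups in the other comparisons over the 12 arrays. The levels of Eif2s3y, which is Y-linked, were 4.70 and 4.76 on normal bladders 1 and 2. They were 4.66 on tumour bladder 6 and from 5.59 to 6.09 on tumour bladders 1, 2 and 7. Tumour bladder 6 was thus low in both genes, with Xist at 5.43. Treated bladder 3, high in Xist, had Eif2s3y at 5.43, between treated bladders 1 (5.21) and 2 (5.57). Both genes together do not settle the sex of tumour bladder 6 or treated bladder 3. Results for the 10 genes are given over all arrays and, for the leading values, over the 12 and over the 8, which hold no treated bladder.

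The promoters of the calprotectin genes are shown because these genes had the widest ranges of the 10 and followed each other. Both windows run from 250 bases before to 50 bases after the RefSeq start (build GRCm38.p6). S100a8 lies on the plus strand at chr3:90668821-90669120 and S100a9 on the minus strand at chr3:90695672-90695971. Capitals mark TTNNGNAA, a pattern that C/EBP factors of the myeloid lineage can bind, and TATAAA, the TATA box, each searched on both strands.
S100a8: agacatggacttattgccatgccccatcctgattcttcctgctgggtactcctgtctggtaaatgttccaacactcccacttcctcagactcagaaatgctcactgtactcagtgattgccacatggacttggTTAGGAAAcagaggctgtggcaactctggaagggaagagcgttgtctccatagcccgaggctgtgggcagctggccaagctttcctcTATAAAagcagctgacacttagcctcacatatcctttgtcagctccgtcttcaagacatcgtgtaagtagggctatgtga
S100a9: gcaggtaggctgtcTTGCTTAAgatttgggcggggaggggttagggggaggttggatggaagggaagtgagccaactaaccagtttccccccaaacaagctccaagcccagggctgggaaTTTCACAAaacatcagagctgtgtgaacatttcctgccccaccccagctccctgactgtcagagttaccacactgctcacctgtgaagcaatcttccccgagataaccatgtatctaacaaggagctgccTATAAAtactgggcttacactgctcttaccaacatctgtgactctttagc
In the S100a8 window TTNNGNAA began 117 bases before the start and TATAAA 30 bases before it. In the S100a9 window TTNNGNAA began 236 and 130 bases before the start, and TATAAA began at base 1 of the transcript as RefSeq gives it. TTNNGNAA was present in 5 of the 10 genes' windows (also in those of Stfa1, Ngp and Ltf) and in 40.7% of all 32851 windows of this length. TATAAA was present in 2 of the 10 and in 13.6% of all windows. These matches describe the letters only.

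The calprotectin genes varied more than nearly all others. The SD of S100a8 over the 20 arrays was 2.35, rank 6 of 30142 genes, and that of S100a9 was 2.17, rank 9, where the median gene had 0.270. In normal bladders 1, 2, 4, 5 and 6, S100a8 was at 4.26, 4.64, 7.45, 6.64 and 7.89. In the 7 tumour bladders it ran from 4.76 (tumour bladder 1) through a median of 7.78 to 13.56 (tumour bladder 6). Treated bladders 1, 2 and 3 were at 8.71, 5.16 and 4.87, and metastases 1 to 4 at 8.77, 7.71, 7.52 and 7.14. The palbo metastasis was at 11.89. The highest level was thus on 1 tumour bladder and the next on the palbo metastasis, and normal, tumour and treated bladders each had an array below 5 on the log2 scale.

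S100a9, the partner subunit, followed the same order at both ends. It was at 4.68, 5.23, 8.07, 6.42 and 8.97 in normal bladders 1, 2, 4, 5 and 6. Tumour bladders ran from 5.99 (tumour bladder 1) through a median of 8.34 to 12.81 (tumour bladder 6). Treated bladders 1, 2 and 3 were at 10.05, 6.69 and 5.30, metastases 1 to 4 at 9.25, 8.51, 8.51 and 7.83, and the palbo metastasis at 12.01. Metastases were the least variable group for both genes, with 7.79 ± 0.70 (SD, n = 4) for S100a8 and 8.52 ± 0.58 (SD, n = 4) for S100a9, and treated bladders ranged over several units for each.

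**Figure D1:**
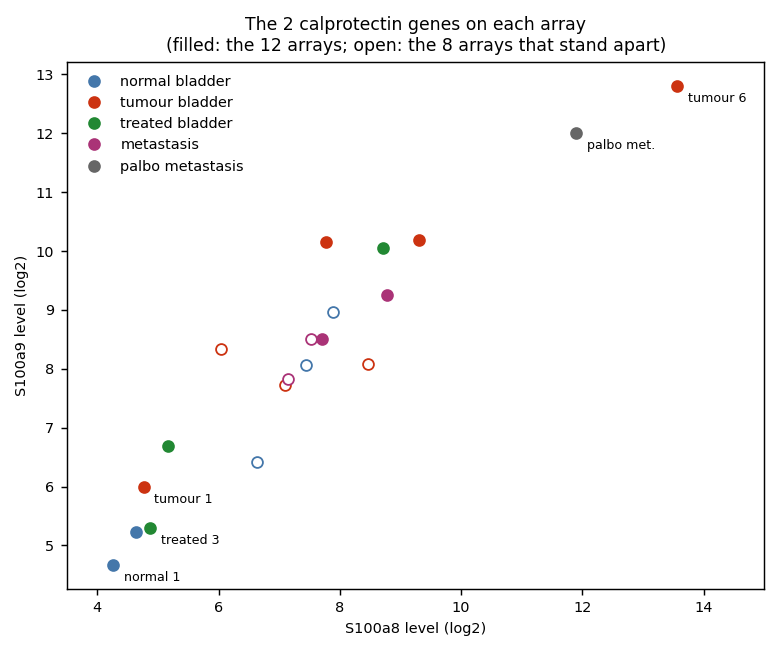
Level of S100a9 (vertical axis, log2) against that of S100a8 (horizontal axis, log2), 1 point per array, coloured by group, filled for the 12 arrays and open for the 8 that stand apart. Tumour bladder 6 (13.56 and 12.81) and the palbo metastasis (11.89 and 12.01) lie at the upper right, and normal bladder 1 (4.26 and 4.68) at the lower left.

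Over the 12 arrays the 2 calprotectin genes followed each other with r = 0.967 (rho = 0.965), the highest of the 45 pairs among the 10 genes, which had a median r of 0.384. Over the 8 arrays the r for S100a8 and S100a9 was 0.38 (rho = 0.524) and the median over pairs was 0.075. These values describe arrays that share a normalisation and mix groups, so they carry no test. Over the 12 arrays S100a8 also went with Cxcr2 (r = 0.90) and Csf3r (r = 0.816), less with Ngp (r = 0.622) and Camp (r = 0.515), and hardly with Mpo (r = 0.209) or Elane (r = 0.004). Mpo went with Ltf (r = 0.821, rho = 0.664) and Elane (r = 0.729) there. Tumour bladder 6, high in S100a8 and Cxcr2 but not in Mpo or Elane, is one of these 12 points. So are tumour bladder 2 (Ltf at 7.54, Mpo at 5.56) and the palbo metastasis (6.56 and 5.56). Over the 8 arrays Mpo had r = -0.727 with Ltf and -0.064 with Elane. S100a8 had r = 0.31 with Cxcr2 and 0.351 with Csf3r over those 8.

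Stfa1 encodes stefin A1, an inhibitor of cysteine proteases. It belongs to a mouse cluster of near-identical copies, so its probes may also read transcripts of its relatives. It was at 4.85, 5.22, 5.98, 5.29 and 5.41 in normal bladders 1, 2, 4, 5 and 6, and in tumour bladders it ran from 5.26 through a median of 6.16 to 6.86 (tumour bladder 6). Treated bladders 1, 2 and 3 were at 5.03, 5.76 and 7.14, metastases 1 to 4 at 5.39, 5.60, 5.93 and 6.43, and the palbo metastasis at 6.17. Treated bladder 3 thus held the highest Stfa1 level of the 20 arrays although its S100a8 level, 4.87, was among the 4 lowest. The basal and squamous keratinocyte markers averaged 6.34 on treated bladder 3, their highest level. They ran from 5.64 to 6.02 in normal, 5.32 to 6.30 in tumour and 5.72 to 6.34 in treated bladders, and from 5.08 to 5.73 in metastases, with 5.04 on the palbo metastasis. On treated bladder 3 Ivl was at 12.47 and Krt5 at 8.97, while Krt1 was at 5.15 and Sprr3 at 4.34. Ivl was also at 13.34 on tumour bladder 7 and at 10.88 and 11.32 on normal bladders 1 and 2. The luminal urothelium and smooth muscle markers averaged 8.15 and 8.52 on treated bladder 3. There is no measure of background for the 14 measured keratinocyte markers, and the part of these lists in the Stfa1 level was not tested.

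The relatives of Stfa1 differed among themselves on tumour bladder 6 and treated bladder 3. Stfa2 and Stfa2l1, also stefin A genes, peaked on tumour bladder 6 at 7.67 and 8.68, and were at 5.43 and 5.64 on treated bladder 3. Cstdc5 and Cstdc6, stefin-like genes of the cluster, were at 6.61 and 7.35 on tumour bladder 6 and at 6.87 and 7.10 on treated bladder 3. Tumour bladder 6 was thus high in all 4, and treated bladder 3 in Cstdc5 and Cstdc6, as in Stfa1. Cstdc6 was also at 7.09 on normal bladder 4 and at 7.30 on the palbo metastasis. Cstdc4, another stefin-like gene, was at 7.53 on tumour bladder 6 but at 4.59 on treated bladder 3. Stfa3 was at 6.74 and 6.16 on these arrays. Cstb, which encodes stefin B of many cell types, had its highest level on tumour bladder 6 (11.88), with 11.34 on treated bladder 3.

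The primary granule genes were low and nearly flat. Mpo encodes myeloperoxidase, which makes hypochlorous acid, and Elane neutrophil elastase. Mpo was at 5.07, 5.15, 5.26, 5.30 and 5.31 in normal bladders 1, 2, 4, 5 and 6, and from 4.94 through a median of 5.26 to 5.56 (tumour bladder 2) in tumour bladders. It was at 5.11, 5.11 and 4.94 in treated bladders 1, 2 and 3, at 5.01, 5.01 and 5.21 in metastases 1, 2 and 4, just below these in metastasis 3, and at 5.56 on the palbo metastasis. All 20 values lay within 0.627, and the SD of 0.183 was larger than that of 24.0% of all genes. Elane ran from 4.05 (treated bladder 3) to 5.02 (normal bladder 4), with group means from 4.31 ± 0.23 (SD, n = 3) in treated to 4.57 ± 0.29 (SD, n = 5) in normal bladders. The mean level of Elane stood above that of only 6.41% of the table's rows. The table has no measure of background, so whether such a level reflects transcript is not known.

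The secondary granule genes were intermediate. Camp, which encodes the antimicrobial cathelicidin, ran from 5.33 (treated bladder 3) to 6.41 (tumour bladder 7), a range of 1.07. Ngp, a granule protein related to cystatins and cathelicidins, ran from 4.79 (normal bladder 2) to 6.19 (palbo metastasis). Ltf encodes lactoferrin, an iron-binding protein that glandular epithelia also secrete. It was at 5.43, 5.50, 5.71, 5.67 and 5.84 in normal bladders 1, 2, 4, 5 and 6. In tumour bladders it ran from 5.62 through a median of 5.85 to 7.54. That highest level was on tumour bladder 2, and the next tumour bladder was at 5.97. Treated bladders 1, 2 and 3 were at 5.73, 5.71 and 5.43, metastases 1 to 4 at 5.54, 5.42, 6.21 and 5.81, and the palbo metastasis at 6.56. Tumour bladder 2 did not lead in Camp (5.78) or Ngp (5.66), so its Ltf level was not matched by these other 2 genes.

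Csf3r, the receptor for the growth factor G-CSF, and Cxcr2, the receptor for neutrophil-attracting chemokines, were set off on tumour bladder 6. Csf3r was at 6.95 there and from 5.18 to 5.76 on the other tumour bladders. It was at 5.12, 5.12, 5.63, 5.31 and 5.62 in normal bladders 1, 2, 4, 5 and 6, at 5.49, 5.51 and 5.11 in treated bladders 1, 2 and 3, and at 5.92, 5.32, 5.61 and 5.61 in metastases 1 to 4. Cxcr2 was at 7.37 on tumour bladder 6 and from 5.62 to 5.95 on the other tumour bladders. Normal bladders 1, 2, 4, 5 and 6 were at 5.38, 5.45, 5.94, 5.93 and 5.85, treated bladders 1, 2 and 3 at 6.01, 5.43 and 5.47, and metastases 1 to 4 at 5.67, 5.74, 5.56 and 5.63. On the palbo metastasis Csf3r was at 6.09 and Cxcr2 at 6.38, each the second highest of the 20 levels. Apart from those 2 arrays, the groups of both receptors overlapped throughout.

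**Figure D2:**
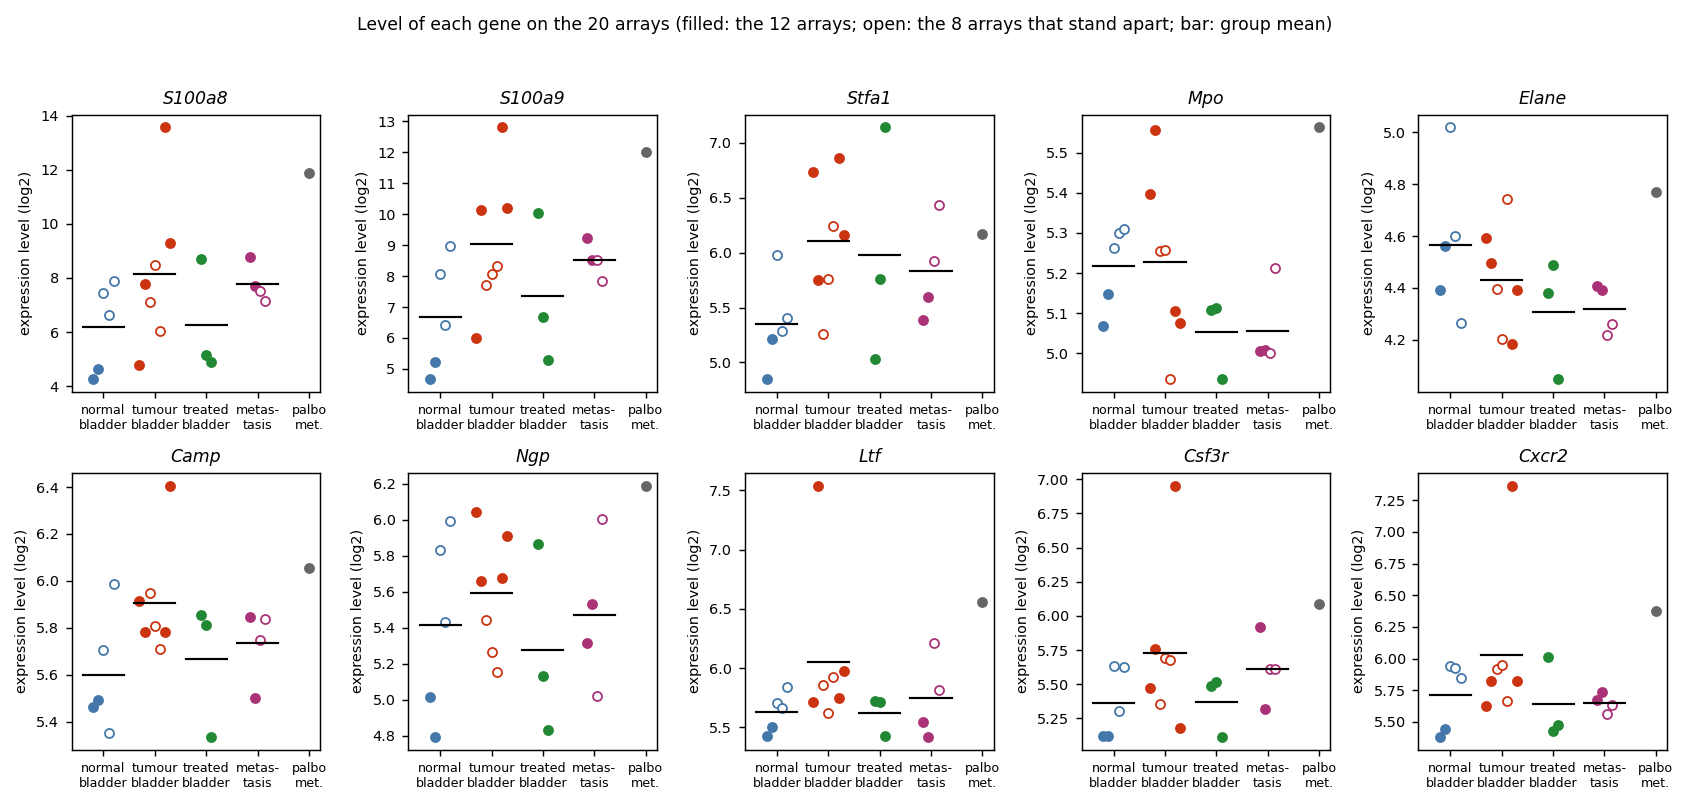
Level of each of the 10 genes (vertical axis, log2, scaled per panel) on every array by group; filled points are the 12 arrays, open points the 8 that stand apart, and bars the group means. S100a8 spans 4.26 to 13.56 and Mpo 4.94 to 5.56, and in every panel the ranges of normal, tumour and treated bladders overlap.

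Among the 4 groups with replicates, tumour bladders had the highest mean for all of these genes but Elane, for which normal bladders did. Of the 30 neighbouring pairs of group means, 28 differed by less than the larger SD of the pair. The exceptions were Stfa1 in metastases (5.84 ± 0.46, SD, n = 4) against normal bladders (5.35 ± 0.41, SD, n = 5), and Mpo in normal bladders (5.22 ± 0.11, SD, n = 5) against metastases (5.06 ± 0.10, SD, n = 4). Neither passed limma's test between those groups, with an adjusted p of 0.818 for Stfa1 and 0.794 for Mpo.

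Tumour bladders were compared with normal bladders for the levels of these genes after delivery of Cre. S100a9 averaged 9.04 ± 2.21 (SD, n = 7) after Cre and 6.67 ± 1.83 (SD, n = 5) without it, a difference of 2.37 (SE 1.03), or 5.16-fold, with 6 of 7 tumour arrays above the normal mean. S100a8 averaged 8.14 ± 2.83 (SD, n = 7) against 6.18 ± 1.64 (SD, n = 5), a difference of 1.97 (SE 1.15), and Stfa1 6.11 ± 0.57 against 5.35 ± 0.41, a difference of 0.76 (SE 0.33). Camp was at 5.91 ± 0.24 against 5.60 ± 0.25, with 7 of 7 tumour arrays above the normal mean. The differences were 0.43 for Ltf, 0.37 for Csf3r, 0.32 for Cxcr2, 0.18 for Ngp, 0.01 for Mpo and -0.14 for Elane. The difference was above 0 for 9 of the 10 genes, as it was for 53.1% of all genes, and their median was 0.34 against 0.01 over all genes. S100a8 and S100a9 were among the 29 genes (0.0962%) with a difference of at least 1 upward.

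None of these genes passed. By limma, 0 of 30142 genes (0%) had an adjusted p under 0.05, and each of the 10 stood at an adjusted p of 0.998. At an unadjusted p under 0.05 there were 3 of the 10 (S100a9, Stfa1 and Camp) and 1281 of all genes (4.25%). For none of the 10 were the groups free of overlap, as they were for 0.0829% of all genes with tumour bladders higher and 0.0829% with them lower. Without tumour bladder 6 the S100a8 difference was 1.06 and the Csf3r and Cxcr2 differences 0.16 and 0.09, and without tumour bladder 2 the Ltf difference was 0.18. Of the macrophage and monocyte markers 10 of 11 had higher means in tumour bladders (mean level 5.86 to 7.13, against 5.95 to 6.71 in normal bladders), and of the smooth muscle markers 10 of 10 had lower means (5.45 to 9.97 against 6.70 to 8.80). Their median differences were 0.25 and -0.85, with 0.56 and -2.15 over the 12 arrays and -0.14 and -0.0022 over the 8. None passed limma's test, and their part in the differences was not tested.

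The difference depended on the set of arrays. Over the 12 arrays, with 4 tumour and 2 normal bladders, S100a9 was higher by 4.83 (SE 1.66), S100a8 by 4.40 (SE 1.95), Stfa1 by 1.35 and Ngp by 0.92 in tumour bladders, with a median of 0.76 over the 10 genes. The groups did not overlap, tumour higher, for 8 of the 10, all but Mpo and Elane, and for 7.67% of all genes. Over the 8 arrays, with 3 and 3, the differences were 0.23 for S100a9, -0.12 for S100a8, 0.20 for Stfa1 and -0.46 for Ngp, with a median of -0.0035. There the groups were apart for Mpo alone, tumour lower (6.28% of all genes). No gene passed by limma in either set, where 1007 genes over the 12 and 1624 over the 8 had an unadjusted p under 0.05. Normal bladders 4, 5 and 6 held S100a8 at 6.64 to 7.89 and normal bladders 1 and 2 at 4.26 and 4.64. These 2 sets of normal bladders did not overlap in S100a8.

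**Figure D3:**
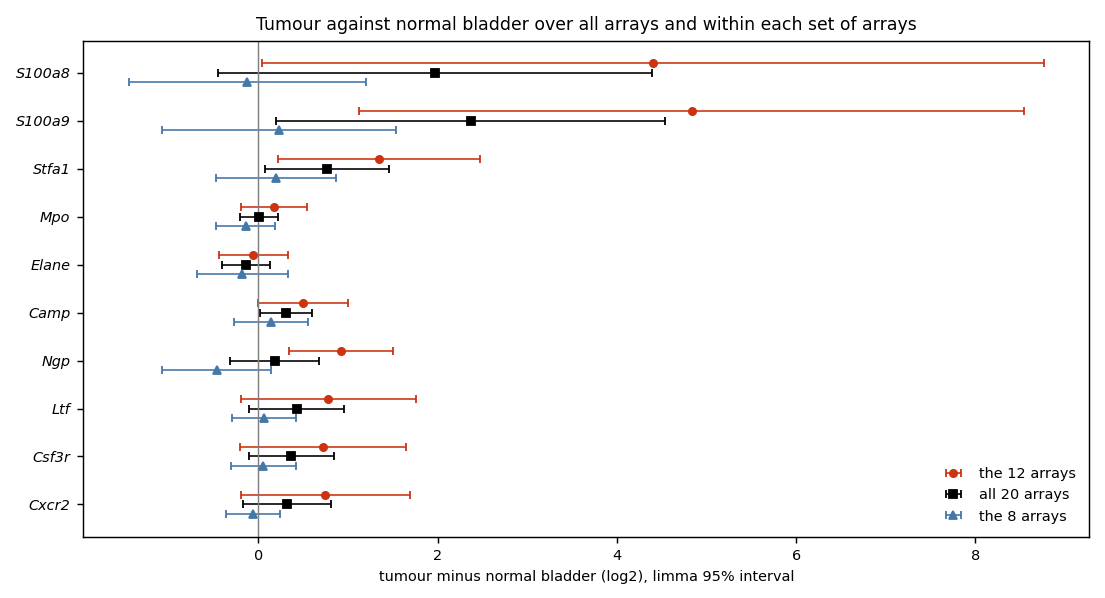
Tumour minus normal bladder for each gene (horizontal axis, log2) with limma's 95% interval, over the 12 arrays (red circles), all 20 (black squares) and the 8 (blue triangles). For S100a8 the values are 4.40, 1.97 and -0.12, and for Elane they stay between -0.18 and -0.06.

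The comparison of treated with untreated tumour bladders addresses the 28 days of palbociclib and CDDP. All 10 genes had a lower mean in treated bladders, as did 57.4% of all genes, with a median difference of -0.34 against -0.02 over all genes. S100a8 averaged 6.25 ± 2.14 (SD, n = 3) against 8.14 ± 2.83 (SD, n = 7), a difference of -1.89 with a 95% interval from -4.75 to 0.96. S100a9 averaged 7.35 ± 2.44 against 9.04 ± 2.21, a difference of -1.69 with an interval from -4.25 to 0.86. All 3 treated arrays lay below the tumour mean for Mpo, Camp, Ltf, Csf3r and Cxcr2, whose differences ran from -0.17 (Mpo) to -0.43 (Ltf). For S100a8, S100a9, Ngp and Elane 2 of 3 did, and likewise for Stfa1, at -0.13. S100a8 and S100a9 were among the 13 genes (0.0431%) with a difference of at least 1 downward.

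By limma 0 of 30142 genes passed (0%), 103 had an unadjusted p under 0.05 (0.342%), none of them among the 10. The groups overlapped for each of the 10, and did not for 0.073% of all genes with treated bladders higher and 0.0564% with them lower. With array weights the S100a8 and S100a9 differences turned to 0.05 and 0.32, and the median of the 10 was -0.08. Without treated bladder 1 the S100a8 and S100a9 differences were -3.13 and -3.04, and without treated bladder 3 they were -1.21 and -0.67. Without tumour bladder 6 they were -0.99 and -1.07. Stfa1 turned to 0.34 without treated bladder 1 and was at -0.71 without treated bladder 3. Over the 12 arrays S100a8 was at -2.60 and S100a9 at -2.44. Of the macrophage and monocyte markers, 10 of 11 measured also had lower means in treated bladders. Their mean level ran from 5.95 to 6.51 in treated and 5.86 to 7.13 in tumour bladders, and their part in the result was not tested. The luminal urothelium markers (11 of 11 higher, 6.93 to 8.15 against 5.27 to 9.42) and smooth muscle markers (10 of 10 higher, 6.77 to 8.52 against 5.45 to 9.97) had higher means in treated bladders, and no marker passed limma's test.

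**Figure D4:**
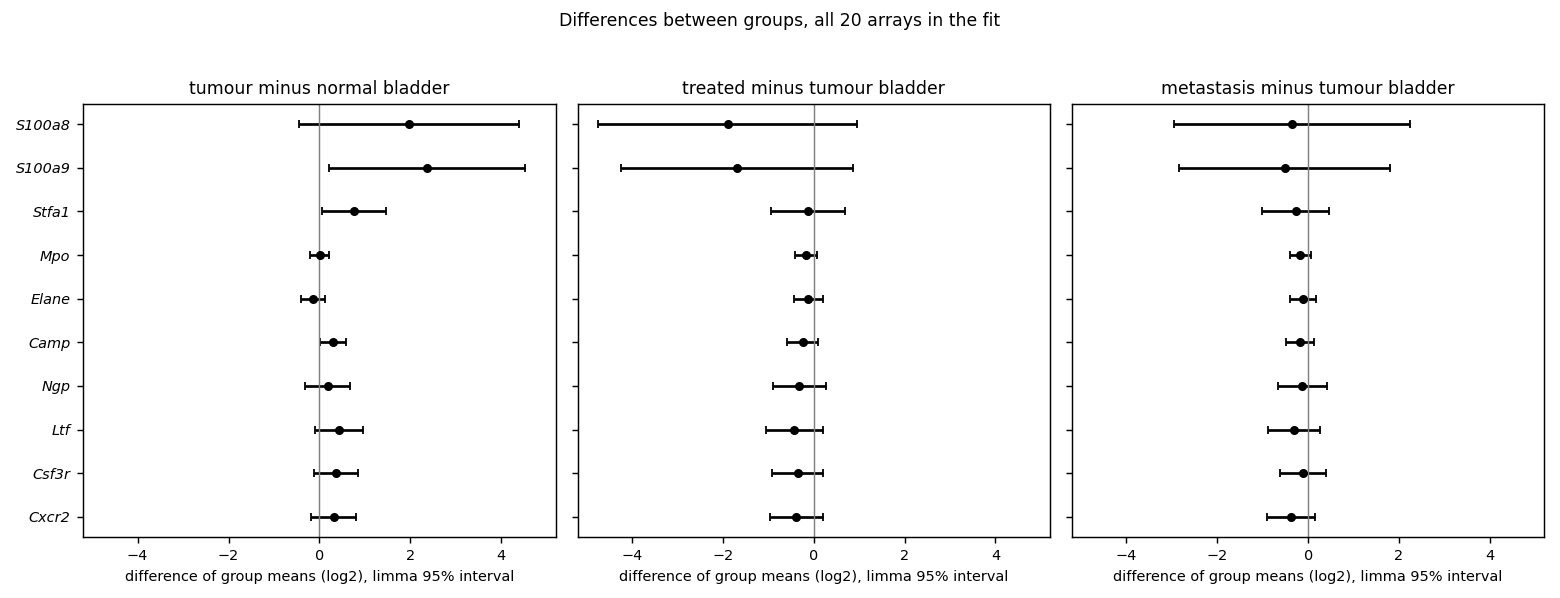
Difference of group means (horizontal axis, log2) with limma's 95% interval for each gene: tumour minus normal, treated minus tumour, and metastasis minus tumour bladder, all 20 arrays in the fit. The calprotectin genes have the widest intervals, S100a8 from -4.75 to 0.96 for treated minus tumour, and Mpo and Elane the narrowest.

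Metastases were compared with the same tumour bladders, so both comparisons share those arrays. All 10 means were lower in metastases, as were 56.1% of all genes, with a median of -0.22 over the 10 and -0.03 over all genes. S100a8 differed by -0.36 (95% interval -2.95 to 2.23) and S100a9 by -0.52 (-2.84 to 1.80). Without tumour bladder 6 these values turned to 0.55 and 0.11, and with the palbo metastasis counted as a metastasis to 0.46 and 0.18. All 4 metastases lay below the tumour mean for Mpo, Elane, Camp and Cxcr2, by -0.17, -0.11, -0.17 and -0.37. By limma 0 genes passed (0%), with 1745 at an unadjusted p under 0.05 (5.79%), none of them among the 10, whose adjusted p lay between 0.869 and 0.973. Of the macrophage and monocyte markers 9 of 11 had higher means in metastases (median 0.54, mean level 6.55 to 8.04 against 5.86 to 7.13 in tumour bladders). Of the smooth muscle markers 10 of 10 (median -0.72, 5.56 to 6.74 against 5.45 to 9.97) and of the luminal markers 9 of 11 (median -0.32, 5.26 to 6.68 against 5.27 to 9.42) had lower means. Their part was not tested. Over the 12 arrays the median difference of the 10 was -0.43 and over the 8 arrays 0.08. The other neutrophil lists, described below, were mixed. Means were higher in metastases for 10 of 15 surface receptors (median 0.05) and 4 of 4 phagocyte oxidase genes (0.28). So they were for 4 of 5 granulocyte transcription factors (0.22) and 3 of 4 calprotectin receptors (0.17). Means were lower for 6 of 10 ligands (-0.08) and 4 of 6 primary granule genes (-0.06). The same held for 5 of 9 secondary and tertiary granule genes (-0.10) and 4 of 7 stefin relatives (-0.10).

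Against normal bladders, metastases had a higher mean for 7 of the 10 genes, where 47.3% of all genes did. S100a9 differed by 1.85 (SE 1.18), S100a8 by 1.61 (SE 1.32) and Stfa1 by 0.49 (SE 0.38), each with 4 of 4 metastases above the normal mean. S100a8 and S100a9 were among the 122 genes (0.405%) with a difference of at least 1 upward. Mpo, Elane and Cxcr2 were lower, by 0.16, 0.25 and 0.06 in size. By limma 0 genes passed (0%) and none of the 10 was among the 2082 (6.91%) at an unadjusted p under 0.05. Over the 8 arrays the S100a8 difference was 0.0063 and over the 12 arrays 3.79. Of the macrophage and monocyte markers 9 of 11 had higher means in metastases than in normal bladders (median 0.61, 6.55 to 8.04 against 5.95 to 6.71). Of the smooth muscle markers 10 of 10 (median -1.60, 5.56 to 6.74 against 6.70 to 8.80) and of the luminal markers 10 of 11 (median -0.62, 5.26 to 6.68 against 6.56 to 8.03) had lower means. Their part was not tested.

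Treated bladders had higher means than normal bladders for 5 of the 10 genes, where 46.7% of all genes did. S100a8 differed by 0.07 (95% interval -2.95 to 3.09), S100a9 by 0.67 and Stfa1 by 0.63. Single arrays carried these values: without treated bladder 1 S100a8 was at -1.16 and S100a9 at -0.68, and without treated bladder 3 Stfa1 was at 0.05 and S100a9 at 1.70. By limma 0 genes passed (0%) and none of the 10 was among the 108 (0.358%) at an unadjusted p under 0.05. The 12 arrays hold all 3 treated but only 2 of the normal bladders. Over them S100a8 was higher in treated bladders by 1.80 (SE 2.06), S100a9 by 2.39 (SE 1.75) and Stfa1 by 0.94 (SE 0.53). The median over the 10 genes was 0.24 there, against 0.01 over all genes, and no gene passed.

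The palbo metastasis stood above all 4 other metastases in 9 of the 10 genes, all but Stfa1, and in 25.3% of all genes. S100a8 was higher there by 4.11 than the mean of the 4 and S100a9 by 3.48, where the metastases had an SD of 0.70 and 0.58. Mpo and Ngp had their highest level of all 20 arrays on it, at 5.56 and 6.19. With 1 array this has no replicate check and no test. The macrophage and monocyte markers averaged 7.94 on it, within the 6.55 to 8.04 of the metastases. Of the lists of other cell types, those below the metastases were the luminal markers at 4.74 (metastases 5.26 to 6.68), the smooth muscle markers at 4.79 (5.56 to 6.74) and the keratinocyte markers at 5.04 (5.08 to 5.73). Above them were the T cell markers at 5.72 (5.09 to 5.53) and the eosinophil and mast cell markers at 5.49 (5.12 to 5.45). Of the neutrophil lists, described below, the primary granule genes at 5.25 (4.91 to 5.11) were above the metastases. So were the stefin relatives at 7.46 (6.56 to 6.88). Within their range were the surface receptors at 6.11 (5.51 to 6.32) and the phagocyte oxidase genes at 7.09 (6.01 to 7.36). The ligands at 5.37 (4.94 to 5.43) were within it too. So were the secondary and tertiary granule genes, transcription factors and calprotectin receptors. The part of these lists in the levels was not tested.

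Other neutrophil genes were read from 8 lists, and over all arrays none of their members passed limma in any comparison. Medians and counts are over all arrays unless stated. Among ligands for these receptors and other inflammatory signals, 8 of 10 had higher means in tumour than in normal bladders and 8 of 10 lower means in treated than in tumour bladders. Il1b, the interleukin that drives neutrophil inflammation, was at 7.60 on tumour bladder 6 and from 4.90 to 5.77 on the other tumour bladders, and Cxcl5, a Cxcr2 ligand, at 7.10 against 5.23 to 6.18. Csf3, the ligand of Csf3r, ran from 4.12 to 5.01 over all 20 arrays, with its highest level on tumour bladder 5. Tumour bladder 6 was thus high in a Cxcr2 ligand and in Cxcr2 itself, but not in Csf3.

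Of the surface receptors, 15 of 15 measured genes had higher means in tumour than in normal bladders (median 0.26, with 0.42 over the 12 arrays and 0.10 over the 8). In treated against tumour bladders 15 of 15 had lower means (median -0.24). So did 7 of 7 eosinophil and mast cell markers (median -0.07) and 6 of 6 T cell markers (median -0.13). The luminal and smooth muscle markers went the other way, with 11 of 11 and 10 of 10 higher. Il1r2, a decoy receptor for interleukin 1 on neutrophils, was at 8.05 on tumour bladder 6 and from 4.93 to 5.40 on the other tumour bladders. Ly6g, the surface marker that defines mouse neutrophils, ran only from 5.65 (treated bladder 3) to 6.72 (tumour bladder 6).

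Of the other primary granule genes, 4 of 6 were higher in tumour than in normal bladders (median 0.08), and Ctsg, the protease cathepsin G, differed by 0.19 (SE 0.17). Of the other secondary and tertiary granule genes 8 of 9 were higher (median 0.18, with 0.39 over the 12 arrays and 0.03 over the 8). Retnlg, a resistin-like gene of mature neutrophils, differed by 0.55 (SE 0.27) in tumour against normal and by -0.44 (SE 0.32) in treated against tumour bladders. The phagocyte oxidase genes were higher in 4 of 4 (median 0.19, with 0.40 and 0.06 over those sets) and lower in 4 of 4 (median -0.32) in those comparisons. Cybb, its catalytic subunit, differed by 0.39 (SE 0.38) and -0.53 (SE 0.45). Stefin relatives were higher in 7 of 7 (median 0.37) and lower in 7 of 7 (median -0.21). Their tumour against normal median was 0.997 over the 12 arrays and turned to -0.16 over the 8. Cstdc4, a stefin-like gene of the cluster, differed by 0.60 (SE 0.35) and -0.70 (SE 0.41). Granulocyte transcription factors, among them the C/EBP genes, were higher in 4 of 5 (median 0.13) and lower in 3 of 5 (median -0.07). Calprotectin receptors were higher in 3 of 4 (median 0.07) and lower in 2 of 4 (median 0.03). The primary granule, transcription factor and calprotectin receptor lists thus had medians within 0.13 of 0 in both comparisons over all arrays. In tumour against normal bladders their medians were 0.21, 0.19 and 0.08 over the 12 arrays and -0.01, 0.05 and 0.07 over the 8. In treated against tumour bladders they were -0.11, -0.15 and 0.04 over the 12 arrays.

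The genes most like the mean of the 10 over the 12 arrays were Treml2 (r = 0.916), Lst1 (r = 0.896), Zkscan17 (r = 0.896), Stfa2l1 (r = 0.885) and AB124611 (r = 0.881), picked as the highest of all named genes. Lst1 ran from 5.51 (normal bladder 2) to 7.20 (tumour bladder 6) there, and Zkscan17 only from 5.45 to 5.64 on those 12 arrays. Over the 8 arrays the same genes had r = 0.041, 0.339, -0.23, -0.202 and 0.168 with that mean.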

How the data were processed

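The 20 arrays are Affymetrix whole-transcript arrays of RNA from bladder or metastasis tissue. The authors deposited log2 levels made with RMA in Affymetrix Expression Console, per the submitters' processing notes, with no versions given; the log base is taken as 2 because RMA gives log2. Values ran from 2.16 to 22.00 with array medians from 5.11 to 5.48, and 96 to 222 rows per array lay above 16, for which no reason is given. Of 65956 rows, the 30604 with exactly 1 gene symbol were used (827 symbols updated through RefSeq). Where a gene had several rows, the one with the highest mean was kept, which left 30142 genes. No count or depth exists, and the number of arrays limits the precision.

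A linear model with the 5 title groups was fitted to all genes in limma 3.58.1 (R 4.3.3), two-sided, with Benjamini-Hochberg adjustment over 30142 genes and 0.05 as threshold. No test used the palbo metastasis as a group, having 1 array. The labels do not say that arrays come from separate animals, so p-values measure the spread between these arrays, which may be technical. The members, the 15 gene lists and the set of 8 arrays were chosen with earlier results of these data known. The set of 8 is defined by an SD above 0.30 in rows with a mean from 4.5 to 5 and by a highest correlation of deviations under 0.25 in bright rows (mean 7 or more). All 10 genes are named. From each list, the 2 genes with the largest difference in tumour against normal or treated against tumour bladders could be named. Stfa2, Stfa3, Cstdc5, Cstdc6, Cstb, Csf3, Ly6g, Krt1, Sprr3, Xist and Eif2s3y were chosen after their values were seen. Also named are the 5 genes most correlated with the mean of the 10. Of the other marker lists, erythroid, eosinophil and mast cell, and T cell markers had median differences between -0.13 and 0.04 in tumour against normal and treated against tumour bladders. Of 20 pairs of same-numbered arrays of different groups, 1 had deviations correlated above 0.1 (range -0.506 to 0.33). Arrays of the set of 8 were picked for low correlation with all others, so this check cannot decide on pairing for them. The labels do not say that replicate numbers pair arrays. The procedure was tested on simulated data. Other engineered alleles are not reported here.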

Additional observations from a re-analysis of the deposited data

Results flagged for a closer look

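In 5 of the 30 combinations of gene and group tested (normal bladders, tumour bladders and metastases), 1 array was set off from the others by Dixon's 95% criterion, where about 5% would be for independent, normally distributed values. In tumour bladders these were Ltf on tumour bladder 2, at 7.54 with the nearest array at 5.97, Camp on tumour bladder 7, at 6.41 with the nearest at 5.95, and both receptor genes on tumour bladder 6. There Csf3r was at 6.95 with the nearest at 5.76, and Cxcr2 at 7.37 with the nearest at 5.95. In metastases Mpo was at 5.21 on metastasis 4, with the nearest at 5.01 and the 4 arrays within 0.211 of each other. S100a8 and S100a9, although higher on tumour bladder 6 than on any other array, were not set off by this criterion, since the other tumour bladders were also widely spread. The genes are not independent (Csf3r and Cxcr2 had r = 0.894 over the 12 arrays), and the groups mix both sets of arrays. The share of all genes set off was not computed, so no conclusion is drawn from the count.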

How the results depend on the processing

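The comparisons were repeated with array weights, with the other groups left out of the fit, with a trended and robust prior, after removal of genes below a mean of 5.10 (19898 genes left, 9 of the 10 among them), after renewed quantile normalisation or centring, with a gene's rows averaged, with the palbo metastasis added to the metastases, with a block for the replicate number, with the set of 8 arrays left out, taken alone or added as a term, and each array left out in turn. Under none of these did any of the 10 genes pass limma's test in any of the 5 comparisons. The count of all genes passing moved from 0 to 3 without the 8 arrays for metastases against tumour bladders and also for metastases against normal bladders, and to 1 in the latter in the fit on 2 groups. Leaving out each array in turn, the median difference over the 10 genes ran from 0.25 to 0.42 for tumour against normal, -0.45 to -0.23 for treated against tumour (-0.08 with array weights), and -0.26 to -0.15 for metastasis against tumour bladders. For metastases against normal it ran from 0.08 to 0.22, and for treated against normal from -0.23 to 0.09 (0.24 over the 12 arrays). With the replicate block the medians were 0.42, -0.20 and -0.11 for the first 3 comparisons, and no gene was called. It turned S100a8 and S100a9 in metastasis against tumour bladders to 0.64 and 0.44. Within the 8 arrays the medians were -0.0035 for tumour against normal and 0.08 for metastasis against tumour bladders. The cause was not tested.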

Other observations

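Metastases 1 and 2, the metastases among the 12 arrays, held several genes of the neutrophil and macrophage lists at high levels. Their calprotectin levels (S100a8 at 8.77 and 7.71) stayed below those of tumour bladder 6. Itgam, the integrin chain of neutrophils and macrophages, was at 8.83 and 6.90 on them and at 7.32 on tumour bladder 6. Mmp9, the gelatinase of tertiary granules, was at 6.95 and 6.19 against 5.63. Hp, which encodes haptoglobin, was at 9.20 and 10.11 against 7.96. It was also at 8.48 and 8.79 on treated bladders 1 and 2, where the macrophage and monocyte markers averaged 6.51 and 6.27. Whether Hp reads myeloid cells here was not tested. Lyz2, the lysozyme of macrophages and neutrophils, was at 12.87 and 12.77 against 10.80, while Il1r2 was at 5.02 and 5.21 against 8.05. The choice of genes here followed a look at their values, and no test was made.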
